A study of Mus musculus with 6 samples.

Results

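The genes described here encode the core proteins of matrix and basement membrane proteoglycans. A proteoglycan is a protein that carries long sulfated sugar chains, and these members are secreted and sit between cells. The 10 listed genes are Dcn, Bgn, Lum, Fmod, Ogn, Prelp, Hspg2, Agrn, Col18a1 and Vcan. They were looked up by the RefSeq accession in the probe set names, and 7 of the 10 were found, each with 1 probe set, among 909 named genes and 1246 probe sets on the array. Ogn, Prelp and Hspg2 were not analysed here.

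The measurements are 6 expression arrays of total liver RNA from male mice, 3 from diabetic and 3 from healthy wildtype animals, on an Affymetrix array of glycan genes. The series title names the diabetes as insulin-deficient, and the sources used here do not give the strain, the age, the duration or the way it was induced. The study set out to learn whether diabetes lowers the enzymes that make glycosaminoglycans, the chains on proteoglycans, and with them the turnover of plasma lipids. Values are log2 expression values made by the authors with RMA, a method that corrects background, normalizes between arrays and combines the probes of a probe set. The array medians lay between 4.93 and 5.06, so values near 3 are close to the dim end of an array whose values ran from 2.03 to 13.45. The 7 measured hepatocyte markers on the array all had means above the array median; 3 had higher and 4 lower means in diabetic liver. The secreted lectin gene Mbl2 was the 1 called among these 7, against 0.321% of all probe sets. It differed by 1.03 (limma adjusted p = 0.0412, and 0.142 with the replicate number as a block). Igfals, a carrier of circulating IGF, differed by -0.61 (limma adjusted p = 0.928). The diabetic and wildtype arrays did not overlap for 2 of these 7, Mbl2 and Igfals, against 7.87% of all probe sets.

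The members play different roles in the matrix. Decorin (Dcn) and biglycan (Bgn) carry chondroitin or dermatan sulfate, lumican (Lum) and fibromodulin (Fmod) can carry keratan sulfate, and all of them are small leucine-rich proteins, of which decorin, lumican and fibromodulin bind collagen fibrils. In liver, stellate cells and portal fibroblasts are the known makers of decorin and biglycan. Agrin (Agrn) and collagen XVIII (Col18a1) carry heparan sulfate in basement membranes. Hepatocytes are a known source of collagen XVIII, whose end fragment is endostatin, and mice that lack it have raised plasma triglycerides. Versican (Vcan) is a large chondroitin sulfate proteoglycan that binds hyaluronan.

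No difference between diabetic and wildtype liver passed the test for any of the 7 genes. The test was limma, a linear model in which each probe set's variance is drawn toward a value common to the array. With limma 0 of 7 members were past an adjusted p of 0.05 over all probe sets, where 0.321% of all probe sets were called. At an unadjusted p under 0.05 it was also 0 of 7, against 2.97% of all probe sets. The diabetic and wildtype arrays overlapped for all 7 members, so 0 of 7 were free of overlap, against 7.87% of all probe sets. The mean was higher in diabetic liver for 3 members and lower for 4. Their median difference, diabetic minus wildtype, was -0.0077 on the log2 scale, and that over all probe sets was 0.002.

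**Figure D1:**
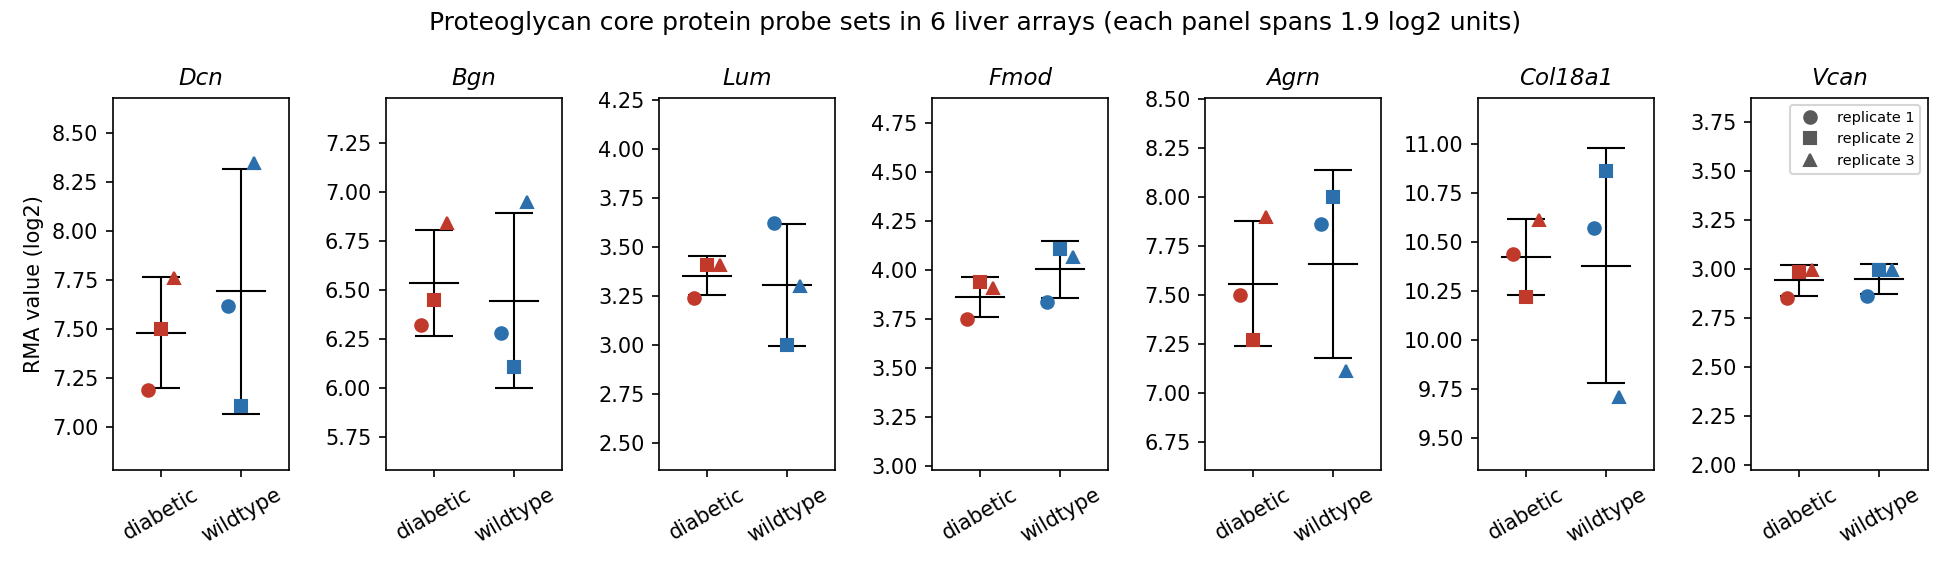
RMA values (log2, vertical axes of equal length) of the 7 measured proteoglycan genes in 3 diabetic and 3 wildtype livers. Each point is 1 array, horizontal lines are group means and error bars are SDs, and the groups overlap in every panel, with the wildtype values of Dcn and Col18a1 spread most widely.

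Decorin had 7.19, 7.50 and 7.76 in the diabetic arrays 1, 2 and 3, against 7.62, 7.11 and 8.35 in the wildtype arrays 1, 2 and 3 (log2 values). Wildtype 3 was the highest and wildtype 2 the lowest of the 6, so all the diabetic values lay inside the wildtype range. The means were 7.48 ± 0.29 for diabetic and 7.69 ± 0.62 for wildtype arrays (n = 3 each, SD), a difference of -0.21 (SE 0.32) with a limma adjusted p of 0.975. This was the largest difference in size among the 7, and its 95% confidence interval ran from 0.508-fold to 1.48-fold. It was 0.12 without wildtype 3 and -0.50 without wildtype 2.

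Biglycan, the nearest relative of decorin among the members, had 6.32, 6.45 and 6.84 in the diabetic arrays, against 6.28, 6.11 and 6.95 in the wildtype arrays. Wildtype 3 was again the highest and wildtype 2 the lowest. The means were 6.54 ± 0.27 for diabetic and 6.45 ± 0.44 for wildtype arrays, a difference of 0.09 (SE 0.25, limma adjusted p = 0.99), with an interval from 0.706-fold to 1.6-fold. Leaving out wildtype 2 gave -0.077 and leaving out wildtype 3 gave 0.34. The gap between decorin and biglycan within an array was 0.86, 1.06 and 0.92 in the diabetic arrays, against 1.34, 1.00 and 1.40 in the wildtype arrays, and these groups overlapped too.

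Lumican and fibromodulin, the members that can carry keratan sulfate, stayed below the array median on all 6 arrays. Lumican had 3.24, 3.41 and 3.41 in the diabetic arrays, against 3.62, 3.00 and 3.30 in the wildtype arrays, a difference of 0.04 (SE 0.16, limma adjusted p = 0.99). The highest and the lowest lumican value were both wildtype. Fibromodulin had 3.75, 3.94 and 3.91 in the diabetic arrays, against 3.84, 4.11 and 4.07 in the wildtype arrays. Wildtype 1 lay among the diabetic arrays, and the difference was -0.14 (SE 0.11, limma adjusted p = 0.928), the smallest p of the 7 genes. Its sign stayed negative with each array left out, from -0.23 to -0.084. No detection call was used, so at such values a level cannot be separated from background, and a narrow interval does not show that the transcript was at the same level.

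Agrin had 7.50, 7.27 and 7.90 in the diabetic arrays, against 7.86, 8.00 and 7.11 in the wildtype arrays. Wildtype 2 was the highest and wildtype 3 the lowest, the reverse of their places for decorin and biglycan. The means were 7.56 ± 0.32 for diabetic and 7.65 ± 0.48 for wildtype arrays (n = 3 each, SD), a difference of -0.10 (SE 0.27, limma adjusted p = 0.99), with an interval from 0.595-fold to 1.47-fold. The difference was -0.37 without wildtype 3 and 0.075 without wildtype 2.

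Collagen XVIII gave the brightest of the 7 probe sets, brighter than 96.6% of all probe sets on the array. It had 10.44, 10.22 and 10.61 in the diabetic arrays, against 10.57, 10.86 and 9.71 in the wildtype arrays. As for agrin, wildtype 2 was the highest and wildtype 3 the lowest array. The means were 10.42 ± 0.20 for diabetic and 10.38 ± 0.59 for wildtype arrays, a difference of 0.04 (SE 0.29, limma adjusted p = 0.99), with an interval from 0.633-fold to 1.68-fold. It was -0.29 without wildtype 3, 0.28 without wildtype 2 and -0.050 without diabetic 3.

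Versican, the hyaluronan-binding member, had 2.85, 2.98 and 2.99 in the diabetic arrays, against 2.86, 2.99 and 2.99 in the wildtype arrays. These values lay within 0.15 of each other on the log2 scale, and 8.67% of probe sets were dimmer. The difference was -0.01 (SE 0.08, limma adjusted p = 0.99). All 7 intervals lay within a 2-fold change in either direction, but those of Dcn, Bgn, Agrn and Col18a1, the 4 members above the array median, did not exclude a change of 0.5 on the log2 scale.

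**Figure D2:**
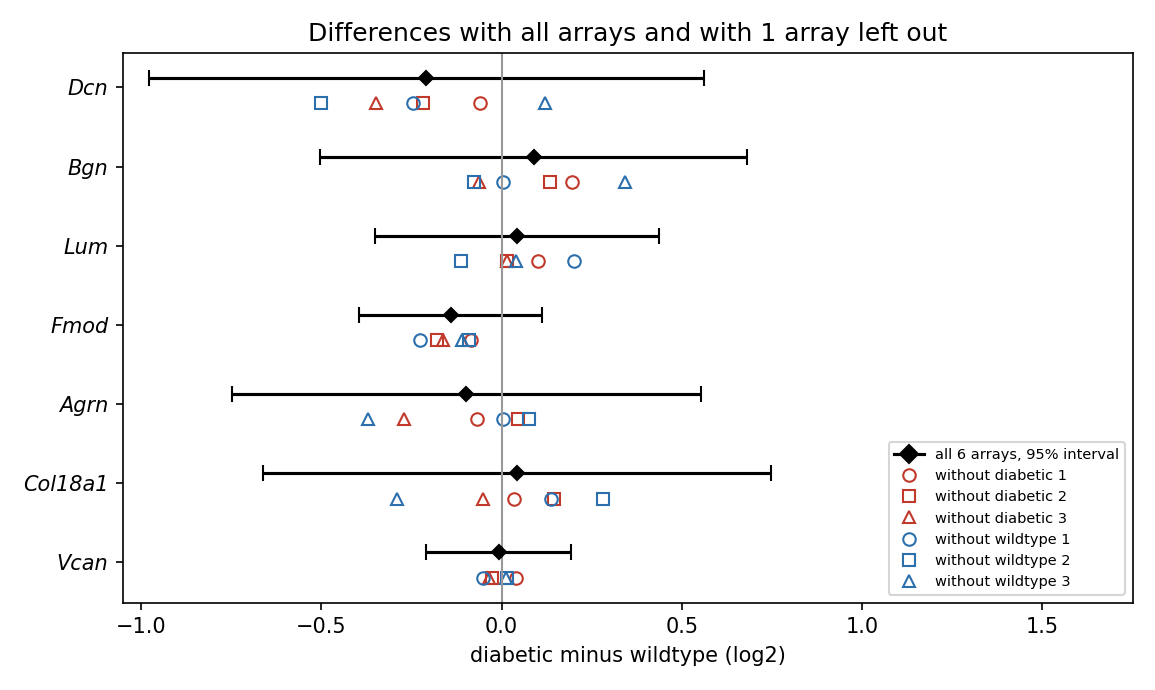
Difference of diabetic minus wildtype liver (horizontal axis, log2) for the 7 genes. Black diamonds with bars are the limma estimates from all 6 arrays with 95% confidence intervals, and open symbols are the estimates with 1 array left out; the lowest and highest open symbols of Dcn, Bgn, Agrn and Col18a1 are those without wildtype 2 or wildtype 3, and all 7 intervals include 0.

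The order of the probe set signals over the 6 arrays ran from Col18a1 at a mean of 10.40 through Agrn at 7.61, Dcn at 7.59, Bgn at 6.49, Fmod at 3.94 and Lum at 3.33 to Vcan at 2.94 (log2). Probe sets differ in how brightly they bind, so this is an order of signals and not of transcript amounts. Within single arrays the signal of Col18a1 exceeded that of Agrn by 2.61 to 2.95 and that of Dcn exceeded Bgn by 0.86 to 1.40, in 6 of 6 arrays each. Agrn and Dcn were not separated by their spread, since Dcn minus Agrn ran from -0.89 in wildtype 2 to 1.24 in wildtype 3. No order is read among Fmod, Lum and Vcan, whose values were not separated from background.

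Among the 4 brighter genes, Dcn and Bgn went one way and Agrn and Col18a1 the other way on wildtype 2 and wildtype 3. Agrn and Col18a1 placed the 6 arrays in the same order, with 15 of 15 pairs of arrays ranked alike. Dcn and Bgn ranked 13 of 15 pairs alike, and at least 13 pairs were ranked like Dcn by 1.98% and like Bgn by 2.75% of the 908 other named genes. Bgn ranked 12 of 15 pairs opposite to Col18a1 and the same number opposite to Agrn, and Dcn ranked 10 of 15 opposite to either. Opposition of that size was not rare, since 10.1% of the 908 other genes were opposite to Bgn in 12 or more pairs and 5.40% were so to Col18a1. The oppositions, and the likeness of Dcn and Bgn, rested on wildtype 2 and wildtype 3: among the other 4 arrays, Dcn ranked 5 of 6 pairs like Col18a1 and like Agrn but 4 of 6 like Bgn, and Bgn ranked 3 of 6 like Col18a1 and like Agrn. In diabetic 3 all 4 genes stood above their means over the arrays, and in diabetic 2 all 4 stood below. The mean over the 909 named genes also stood above its mean over the arrays in diabetic 3, by 0.05, and at -0.02 from it in diabetic 2. In wildtype 3, Dcn stood 0.76 and Bgn 0.46 above their means over the arrays, while Agrn stood at -0.50 and Col18a1 at -0.69 from theirs. In wildtype 2 the signs were turned, with -0.48 for Dcn, -0.38 for Bgn, 0.39 for Agrn and 0.46 for Col18a1.

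**Figure D3:**
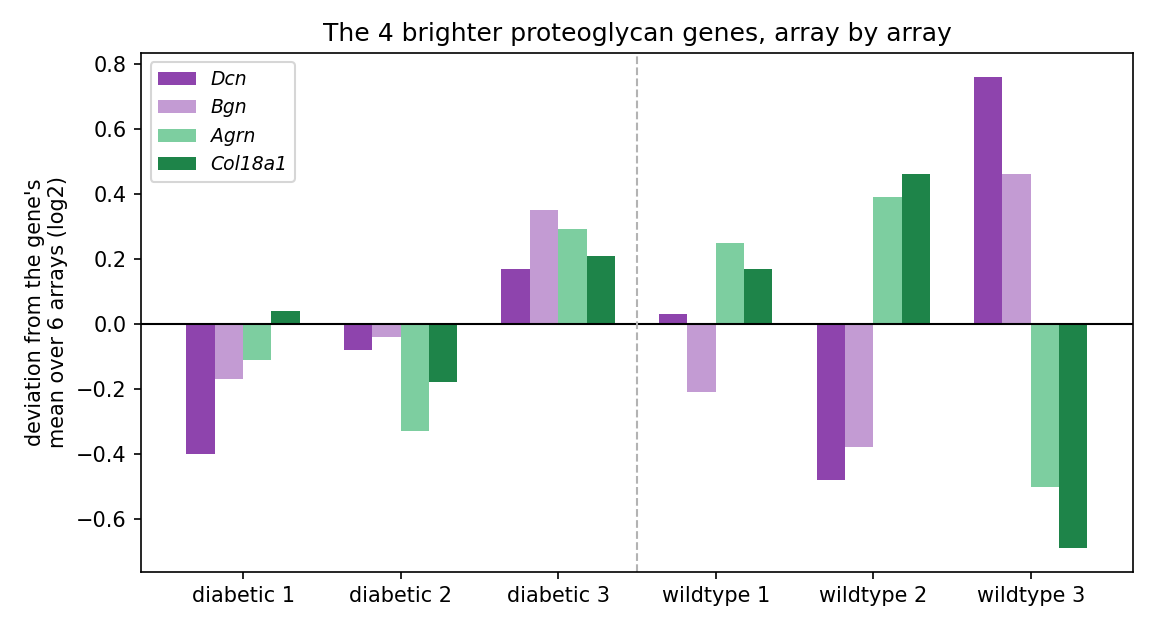
Deviation of each gene from its own mean over the 6 arrays (vertical axis, log2) for Dcn, Bgn, Agrn and Col18a1, array by array, with diabetic arrays left of the dashed line. In wildtype 2 and wildtype 3 Dcn and Bgn deviate in the opposite direction to Agrn and Col18a1, by up to 0.76.

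The gap between Agrn and Col18a1 was steadier than either gene. Agrn minus Col18a1 averaged -2.87 ± 0.14 for diabetic and -2.73 ± 0.13 for wildtype arrays (n = 3 each, SD), while Col18a1 alone had an SD of 0.20 in diabetic and 0.59 in wildtype liver. Among 908 other named genes, Agrn had the third smallest distance to Col18a1, measured as the root mean square difference between profiles centred on their own means over 6 arrays. That distance was 0.128, against a median of 0.375 over all 908 genes. Seen from Agrn, Col18a1 was at place 6 of 908, where the median distance was 0.351. An array order identical to that of Col18a1 was found for 6 of the 908 genes, Agrn among them, or 0.661%. The other genes nearest to Col18a1 were Cpsf7, an mRNA 3′ end processing factor, at 0.0838, and the liver FGF receptor Fgfr4 at 0.11. Nearest to Agrn were Cpsf7 at 0.0941, Zc3h11a, a zinc finger protein, at 0.106, and Anapc1, a subunit of the anaphase-promoting complex, at 0.109.

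For Dcn the nearest gene was Srgn, which encodes serglycin, the proteoglycan of blood cell granules, at a distance of 0.104 against a median of 0.439. Srgn had 6.49, 6.53 and 6.96 in the diabetic arrays, against 6.64, 6.32 and 7.45 in the wildtype arrays, with wildtype 3 highest and wildtype 2 lowest as for Dcn. The transcription factor gene Junb followed at 0.12 and Bgn at 0.203. Bgn was thus the third nearest to Dcn, while Dcn was at place 20 of 908 from Bgn. These distances describe the same 6 arrays that all the genes share and were not tested.

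**Figure D4:**
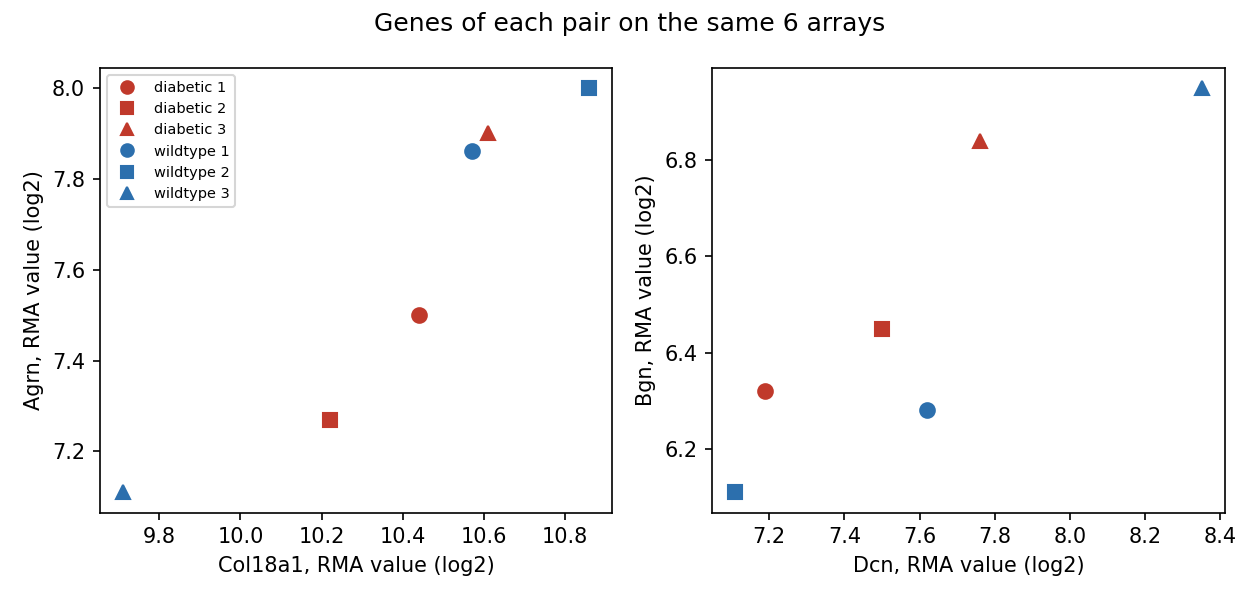
Values of the genes of each pair on the same 6 arrays (both axes RMA value, log2): Agrn against Col18a1 on the left and Bgn against Dcn on the right. Agrn and Col18a1 rank 15 of 15 pairs of arrays alike and Bgn and Dcn 13 of 15, with diabetic and wildtype points mixed.

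The promoters of Agrn, Col18a1 and Bgn are shown because Agrn and Col18a1 varied together and Bgn went the other way on wildtype 2 and wildtype 3. A link between these sequences and that pattern was not tested. Each line gives the 250 bases before a transcription start from RefSeq (GRCm38.p6), 5′ to 3′ on the gene's strand, with capitals marking the GC box GGGCGG, the element that Sp1 binds, or its complement CCGCCC. The windows are chr4:156197489-156197738 (minus strand) for the upstream start of Agrn, chr10:77166531-77166780 and chr10:77113706-77113955 (minus strand) for the upstream and the internal start of Col18a1, and chrX:73483351-73483600 (plus strand) for Bgn.
Agrn, upstream start: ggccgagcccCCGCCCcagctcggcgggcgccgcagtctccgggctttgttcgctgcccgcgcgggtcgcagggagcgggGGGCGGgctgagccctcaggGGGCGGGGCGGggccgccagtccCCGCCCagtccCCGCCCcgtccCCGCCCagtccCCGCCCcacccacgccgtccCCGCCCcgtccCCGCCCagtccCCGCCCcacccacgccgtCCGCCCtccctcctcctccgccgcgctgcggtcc
Col18a1, upstream start: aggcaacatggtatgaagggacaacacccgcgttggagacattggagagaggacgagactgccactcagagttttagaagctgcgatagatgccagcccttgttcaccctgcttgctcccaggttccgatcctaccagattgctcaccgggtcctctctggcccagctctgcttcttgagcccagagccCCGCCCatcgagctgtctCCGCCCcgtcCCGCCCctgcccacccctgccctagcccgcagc
Col18a1, internal start: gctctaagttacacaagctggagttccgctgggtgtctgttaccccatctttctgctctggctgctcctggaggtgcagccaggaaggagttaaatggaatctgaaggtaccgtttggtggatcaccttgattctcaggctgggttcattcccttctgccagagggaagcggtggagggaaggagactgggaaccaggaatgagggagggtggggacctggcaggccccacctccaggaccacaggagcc
Bgn: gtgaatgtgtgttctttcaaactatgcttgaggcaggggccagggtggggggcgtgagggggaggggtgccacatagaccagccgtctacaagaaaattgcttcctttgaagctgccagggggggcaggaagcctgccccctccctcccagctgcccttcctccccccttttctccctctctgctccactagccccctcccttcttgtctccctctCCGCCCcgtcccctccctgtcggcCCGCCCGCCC

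The upstream Agrn window held 12 GC box matches on both strands, some of them overlapping, and was 83.6% G and C, more than 99.7% of 32851 promoter windows of the same length. The window of another, internal Agrn start, at chr4:156186260-156186509 (minus strand, not printed), held 2 matches and was 60.8% G and C, more than 73.9% of windows. The upstream Col18a1 window and the Bgn window held 3 matches each, and the internal Col18a1 window held 0. Of all windows, 32.7% held at least 1. The TATAAA box, found in 12.4% of all windows, and GTTAAT, part of the site of the liver factor HNF1 and found in 6.43%, were in none of the 7 windows of Fmod, Agrn, Col18a1, Vcan and Bgn. The internal Col18a1 start lies inside the gene and is the one known for its use in liver. The array has 1 Col18a1 probe set, and which start its transcripts came from was not determined.

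The spread between arrays of the same group was wide for the brighter members. The within-group SD of Dcn exceeded that of 95.3% of all probe sets, that of Col18a1 94.1%, that of Agrn 92.5% and that of Bgn 90.5%. Among the 623 probe sets above the array median these shares were 92.3% for Dcn, 90.2% for Col18a1, 87.3% for Agrn and 83.8% for Bgn. The SD was smaller in diabetic than in wildtype liver for 6 of 7 members, as it was for 57.2% of all probe sets. Wildtype 2 was the highest or the lowest array for 6 of the 7 members, against 42.2% of all probe sets, and wildtype 3 for 4 of 7, against 35.7%. Of all probe sets, 25.3% were highest and 16.9% lowest in wildtype 2, and 13.5% were highest and 22.2% lowest in wildtype 3. On both arrays the direction of Agrn and Col18a1 was thus the more frequent one.

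Markers of the cells that make matrix were few on the array. Of 18 listed stellate cell and fibroblast markers 3 were measured, and 1 of them, Pdgfrb, the PDGF receptor of stellate cells, lay above the array median. Pdgfrb had 5.16, 5.30 and 5.17 in the diabetic arrays, against 5.15, 5.60 and 6.03 in the wildtype arrays, highest in wildtype 3 like Dcn and Bgn, but not lowest in wildtype 2. The mean over the 3 markers ranged from 3.75 to 3.86 in diabetic and from 3.75 to 4.12 in wildtype liver, with 0 of 3 called. This mean was highest in diabetic 2 and wildtype 3 within their groups, so diabetic 3 was not its highest diabetic array. Hgf, the hepatocyte growth factor gene, went the opposite way to Pdgfrb at a very dim probe set. It had 2.65, 2.67 and 2.58 in the diabetic arrays, against 2.50, 2.37 and 2.47 in the wildtype arrays. Its difference of 0.18 was not called (limma adjusted p = 0.928). The groups did not overlap for 1 of the 3 markers, Hgf, against 7.87% of all probe sets. The mean over 7 of 13 macrophage markers ranged from 5.29 to 5.97 in diabetic and from 5.43 to 5.78 in wildtype liver, with the highest means in diabetic 3 and wildtype 3, the arrays that were also highest for Dcn and Bgn. The mean over 7 of 19 endothelial markers ranged from 5.09 to 5.43 in diabetic and from 5.23 to 5.40 in wildtype liver. It too was highest in diabetic 3 and wildtype 3 within their groups. The macrophage and endothelial means were lowest in diabetic 1 and wildtype 1 within their groups. Dcn and Bgn were lowest in wildtype 2 among the wildtype arrays. The part of these markers in the levels of the proteoglycan genes was not tested, and in whole liver fewer cells of a type and less RNA per cell cannot be told apart.

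Related genes gave few larger differences. The list of other matrix and secreted proteoglycans and relatives gave 13 measured genes, with Smc3 counted as a relative. Of the 13, 7 had higher and 6 lower means in diabetic liver, with 0 called and a median difference of 0.029. The granule proteins Prg3 and Prg2 differed by 0.16 and 0.08 and the testican Spock2 by 0.13 (limma adjusted p = 0.928, 0.942 and 0.928). Prg3 and Prg2 had means over the arrays below the array median. Among 16 cell surface proteoglycan genes, 5 had higher and 11 lower means, with 0 called and a median of -0.04. The glypican Gpc4 differed by -0.34 and the syndecan Sdc1 by 0.44 (adjusted p = 0.928 each). At an unadjusted p under 0.05 limma gave 0 of the 13 and 1 of the 16 genes, Ptprz1, a dim probe set that differed by 0.20. The groups did not overlap for 2 of the 16, against 7.87% of all probe sets: they were higher in diabetic liver for Ptprz1 and lower for the bright Sdc4, a syndecan, which differed by -0.12 (limma adjusted p = 0.928).

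The enzymes of the linkage region, which joins each chain to its core protein, were measured by 5 genes, and 5 of 5 had lower means in diabetic liver, with a median of -0.13 and 0 called. Diabetic 3 was the lowest array for 4 of the 5: without it 3 of 5 were lower, with a median of -0.066, and without wildtype 2 it was 4 of 5, with a median of -0.085. Xylt1, which adds the first xylose, had 5.14, 5.22 and 4.97 in the diabetic arrays, against 5.26, 5.26 and 5.28 in the wildtype arrays. The groups did not overlap for Xylt1, but its difference of -0.16 did not pass (limma adjusted p = 0.928), and 3.29% of all probe sets were lower without overlap. The list of binding partners of these proteoglycans gave 19 genes, with the hyaluronan synthase genes Has1, Has2 and Has3 counted among them. Of the 19, 11 had higher and 8 lower means, with 0 called and a median of 0.015. The selectin gene Selp, with the smallest p of the 19, differed by -0.30 (SE 0.14). Tgfb3, a growth factor of the family that decorin and biglycan bind, differed by 0.13 (SE 0.08) at a dim probe set with a mean of 4.01. Tgfbr2, a receptor of that family, differed by 0.69 (SE 0.40). The limma adjusted p was 0.928 for Selp, Tgfb3 and Tgfbr2 alike. The groups did not overlap for 1 of the 19, Tgfb3, higher in diabetic liver, against 7.87% of all probe sets. Of 5 remodelling genes 2 had higher and 3 lower means and 0 were called, with -0.13 for Hpse2 and 0.12 for heparanase, Hpse. Only Bmp1 of these 5 had a mean over the arrays above the array median. None of these 5 linkage, 19 binding partner and 5 remodelling genes had an unadjusted limma p under 0.05.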

How the data were processed

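Per the labels, each of the 6 samples was biotin-labelled cRNA from total liver RNA on 1 array. The authors deposited normalized log2 values, made with RMA per the submitters' processing notes; the log2 scale was taken from the values, and the sources used here give no version or settings of RMA. Because the authors had already normalized between arrays, a shift common to most genes cannot be seen.

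Of 1246 probe sets, 984 carried a RefSeq accession and 963 were named through a RefSeq gene table (GRCm38.p6), giving 909 genes; for the 48 genes with several probe sets the one with the highest mean was used. All probe sets were fitted together with limma 3.58.1 in R 4.3.3 (lmFit and eBayes, 4 residual and 2.44 prior degrees of freedom), with Benjamini-Hochberg adjustment over all of them and a threshold of 0.05. Folds are 2 to the power of the log2 difference, and intervals cover 95%. The number of arrays limits the precision: the median SE was 0.112. The labels do not say that each array was a separate animal; if some were not, the p-values cover technical spread only. The fit was tested on simulated data.

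The members, gene lists, motifs and the rule for named genes were chosen with earlier results of these data known. The rule named all members, the 3 genes nearest to each of the 3 members with the largest SD over the arrays, and called genes and up to 3 genes with the smallest p of each list (not all are printed). Btg2 was named outside it, after its values were seen, and the ranking of arrays without wildtype 2 and wildtype 3 and the linkage enzymes with 1 array left out were added after seeing the data. Deviations from the group means correlated between same-numbered arrays of the groups at 0.397, 0.138 and 0.162 for numbers 1, 2 and 3. Arrays of different numbers were not compared, so a pairing by number is not established. A replicate block was fitted as well, and what a number stands for is not given in the labels. Promoter windows came from RefSeq (GRCm38.p6) for 5 of the 7 measured members.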

Additional observations from a re-analysis of the deposited data

How the results depend on the processing

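Under each of the 12 alternatives 0 members were called: quantile normalization, a common median for all arrays, a floor of 4.22 on probe set means (which leaves 4 members), eBayes with trend and robust, the replicate block, array weights and leaving out each array in turn. The members' median difference ran from -0.077 to 0.036 with 1 array left out and from -0.082 to 0.0018 under the others. Over all probe sets 4 were called, 3 after quantile normalization and above that floor, 0 with trend and robust, 0 with the replicate block, and between 0 and 1 with 1 array left out; the cause was not tested. The replicate block changed no other call, and among the members its lowest limma adjusted p was 0.822 (Fmod). The sign turned for Col18a1 after quantile normalization (-0.082) and for Vcan with array weights (0.0018). With 1 array left out the differences ran from -0.37 to 0.075 for Agrn, -0.077 to 0.34 for Bgn, -0.29 to 0.28 for Col18a1, -0.50 to 0.12 for Dcn, -0.11 to 0.20 for Lum, -0.051 to 0.039 for Vcan and, with no change of sign, -0.23 to -0.084 for Fmod. Averaging a gene's probe sets was not run, since each member has 1. Signal over background limits Lum, Fmod and Vcan.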

Other observations

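Fmod and Btg2 are neighbouring protein-coding genes on mouse chromosome 1. Btg2, an antiproliferative gene and 1 of the 4 probe sets called over the whole array, averaged 5.78 ± 0.10 for diabetic and 5.08 ± 0.06 for wildtype arrays (n = 3 each, SD; limma adjusted p = 0.0412, and 0.142 with the replicate block), while Fmod averaged 3.87 ± 0.10 and 4.01 ± 0.15 in the same groups. Dcn and Lum are neighbours on chromosome 10, and they ranked 10 of 15 pairs of arrays alike and 4 opposite, with 1 tie. The tie is between diabetic 2 and diabetic 3, whose Lum values are identical as deposited; any 2 of the arrays shared between 2 and 7 identical values. Dcn also ranked 9 of 15 pairs like Vcan and 8 like Fmod, which are not its neighbours. The values of Lum, Vcan and Fmod were not separated from background.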
